A study of Homo sapiens with 6 samples.

Results

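The 10 genes described here encode the 2 ferritin chains, the transferrin receptor and haem oxygenase 1. They also encode transporters and enzymes through which cells turn cystine and glutathione against lipid peroxidation. The last, ACSL4, loads polyunsaturated fatty acids that enter membrane phospholipids. The 10 genes were chosen by name: each row of the deposited transcript count table whose GENCODE v29 symbol was GPX4, SLC7A11, SLC3A2, FTH1, FTL, TFRC, ACSL4, GCLC, GCLM or HMOX1 was taken. This gave 91 transcripts, which were summed to 10 of the 18750 genes in the table. All 10 passed the filter on low counts, which left 13750 genes for the test. The RNA was labelled as that of HCT116, an established human colorectal cancer line. Cells were transfected with a short interfering RNA (siRNA) against the long non-coding RNA AC010789.1 (si-AC010789.1, 3 libraries). Control cells received a non-targeting siRNA (siRNA-NC, 3 libraries). Both groups were labelled as the same line, in the same medium. No genome edit, drug or iron treatment is named for either, and the time from transfection to RNA extraction was not given in the sources used here. The knockdown was transient and used 1 selected siRNA sequence, so it stands for that sequence only. The level of AC010789.1 was not analysed here, and the labels were therefore not checked against the targeted RNA. In such bulk RNA, fewer cells of a type and less RNA per cell cannot be told apart.

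Ferroptosis is a form of cell death in which iron-driven peroxidation of membrane lipids outruns its repair. Cells import cystine through a transporter built of SLC7A11 and SLC3A2, use its cysteine to make glutathione, and spend glutathione in GPX4, a selenium-containing enzyme that reduces lipid peroxides. Iron enters through the transferrin receptor, is released from haem by HMOX1 and is stored in ferritin shells of FTH1 and FTL. When iron is scarce, iron regulatory proteins bind hairpins called iron-responsive elements, which blocks translation of ferritin mRNAs and protects the transferrin receptor mRNA from decay.

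These hairpins are the sequence feature that links the iron genes of the set, and they are shown because the transcripts of FTH1 and TFRC differ in whether they hold one. A search of the GENCODE v29 transcripts for the bulged C, the loop CAGTGN and 5 of 5 paired stem bases between them found a match in FTH1, FTL and TFRC. That is 3 of the 10 genes, beside 339 of all 18750 genes in the table (1.81%). A match is a description of the letters and was not a test of binding. The search can miss elements with another loop or an unpaired stem base, so a gene may hold more than were found. In the lines below, all 29 bases long and read 5′ to 3′ on the strand of the gene (GRCh38), the capitals mark the bulged C and the 6-base loop.
FTH1 5′ UTR, chr11:61967574-61967602, minus strand: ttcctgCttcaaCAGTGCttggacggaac
FTL 5′ UTR, chr19:48965335-48965363, plus strand: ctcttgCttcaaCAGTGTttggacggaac
TFRC 3′ UTR, chr3:196050979-196051007, minus strand: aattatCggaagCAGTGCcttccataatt
TFRC 3′ UTR, chr3:196050575-196050603, minus strand: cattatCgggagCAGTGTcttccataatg
TFRC 3′ UTR, chr3:196050510-196050538, minus strand: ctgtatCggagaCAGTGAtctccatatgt
TFRC 3′ UTR, chr3:196050463-196050491, minus strand: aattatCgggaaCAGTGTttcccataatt

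In GPX4 the sequence that matters is the codon for selenocysteine, a TGA that is read as an amino acid and not as a stop. It is shown because the annotated transcripts of GPX4 differ in whether they hold it. Codon 73 of 197 in GPX4-201 and codon 46 of 170 in GPX4-210 is this TGA, in capitals in the first line (chr19:1105391-1105420, plus strand, GRCh38). The models GPX4-212 and GPX4-213 leave out exactly these 3 bases, as the second line shows. Each has 8 exons, beside 7 in GPX4-201 and in GPX4-210, and the 3 bases fall in a gap between exons. This is a feature of the annotated models, and whether any RNA lacked these bases was not tested.
GPX4-210 with the codon: gtggcctcccagTGAggcaagaccgaagta
GPX4-212 without it: gtggcctcccagggcaagaccgaagta

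The libraries held from 11277222 to 13443866 counts, and 3 counts corresponded to between 0.223 and 0.266 CPM (counts at a common library size), a floor that covers counting error only. Gene levels below are in CPM with TMM-scaled library sizes. The fitted spread between replicates, the biological coefficient of variation, was 0.170 for gene sums and 0.698 for single transcripts. Of 13 colorectal epithelial markers, 7 (KRT19, KRT20, CDX1, CDX2, VIL1, GPA33 and CEACAM5) had no row in the table. CDH17 and LGALS4 were at or under 0.225 CPM, EPCAM reached 5.58 CPM and CDH1 1.05 CPM at most, and only the keratins KRT8 and KRT18 were abundant. Most defining markers of the labelled tissue were therefore absent or low in all 6 libraries, and the cell line label was not checked in any other way. Of 9 mesenchymal markers 7 were in the table, with VIM between 658 and 914 CPM. The summed level of the 13 epithelial markers ranged from 985 to 1228 CPM in siRNA-NC and from 801 to 1041 CPM in si-AC010789.1, that of the mesenchymal markers from 939 to 1097 and from 850 to 1023 CPM, and that of 8 blood and endothelial markers, 3 of them in the table, reached 3.88 CPM at most. Their part in the results below was not tested.

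Taken as a set, the 10 genes showed no change that passed the test. With edgeR's quasi-likelihood test over all genes, 0 of the 10 had an adjusted p-value under 0.05, where 0.982% of all tested genes had one (0.284% above and 0.698% below the control). At an unadjusted p under 0.05 there were 2, FTH1 and SLC3A2, where 17.2% of all genes fell under it. DESeq2, which called 5.16% of the 10743 genes to which it gave an adjusted p, called 1 of the 10, FTH1. For 3 genes no library of one group fell within the range of the other: FTH1, with si-AC010789.1 below, and SLC3A2 and ACSL4, with si-AC010789.1 above. Over all genes the groups lay apart in 25.1% (12.2% with si-AC010789.1 above, 12.9% below), so 3 of 10 was near the background. By sign alone 7 estimates were above 0 and 3 below, with a median log2 fold change of 0.06 against −0.00066 over all tested genes. The 10 genes together made up from 0.312% to 0.334% of a library.

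**Figure D1:**
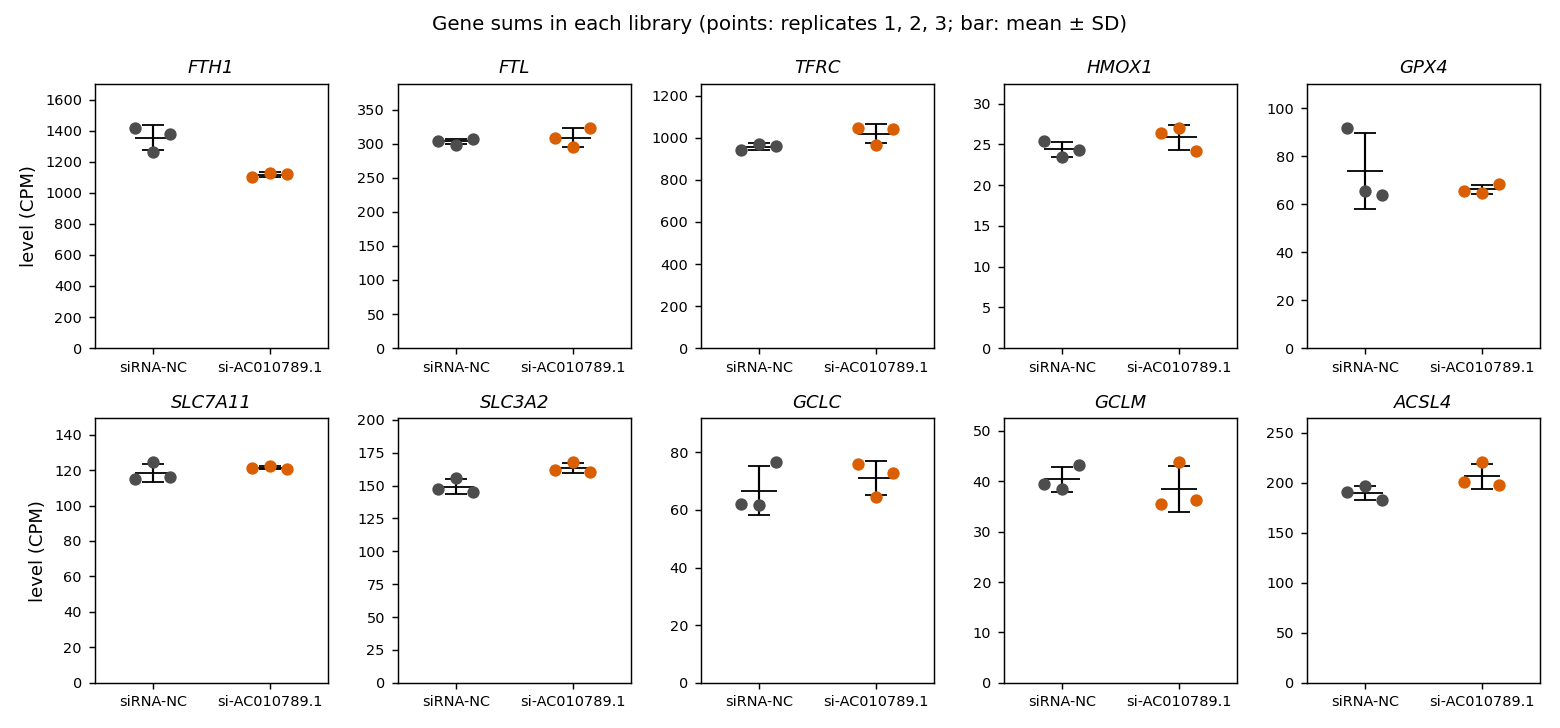
Level of each gene in CPM (vertical axes, each starting at 0) in the 3 siRNA-NC libraries (grey) and the 3 si-AC010789.1 libraries (orange), with the mean and SD of each group. The group means of FTH1 are 1354 and 1116 CPM, and 1 siRNA-NC library of GPX4 stands at 91.9 CPM above all others.

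Between genes, levels were compared per length, as TPM computed from annotated transcript lengths. FTH1 led with a mean of 2792 TPM over the 6 libraries, from 2473 to 3354. FTL followed at 674 TPM and TFRC at 416 TPM, and the ranges of these 3 did not overlap. SLC3A2 came next at 238 TPM and GPX4 at 169 TPM, with ranges that overlapped each other. ACSL4 at 82.5 TPM and GCLC at 46.2 TPM stood apart from their neighbours. The lowest 3, HMOX1 at 27.8, SLC7A11 at 24.5 and GCLM at 20.8 TPM, overlapped from one to the next, while the ranges of HMOX1 and GCLM did not meet. Storage genes stood at the top of the order. The same order held when counts were divided by the length of the longest transcript, and when any 1 library was left out.

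FTH1 encodes the heavy ferritin chain, which oxidizes iron so that it can be stored (ENSG00000167996.15, chromosome 11, from 61959718 to 61967660 on the minus strand, GRCh38). Its level was 1419, 1264 and 1380 CPM in siRNA-NC replicates 1 to 3 against 1099, 1130 and 1119 CPM in si-AC010789.1 replicates 1 to 3. All 3 si-AC010789.1 libraries lay below the lowest siRNA-NC library, and they were closer to each other than the controls were. The means were 1354 ± 80.8 and 1116 ± 15.9 CPM (SD, n = 3 each), a ratio of 0.824. On the log2 scale the difference was −0.28 with a standard error of 0.052, and edgeR's adjusted p of 0.0739 missed the threshold of 0.05. DESeq2 gave the same size and an adjusted p of 0.00213, so the call depended on the tool. With 1 library left out the estimate stayed between −0.33 and −0.24, with adjusted p-values from 0.0737 to 0.203 (edgeR). By unadjusted p FTH1 ranked 243 of the 13750 genes. BEST1, a gene on the opposite strand, shares 1267 exon bases with FTH1 and had from 8 to 22 counts per library, beside at least 12591 for FTH1.

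FTL encodes the light ferritin chain, which helps iron mineralize inside the shell (ENSG00000087086.14, chromosome 19, from 48965301 to 48966878 on the plus strand). It had a single annotated transcript, with 304, 299 and 307 CPM in siRNA-NC against 308, 296 and 323 CPM in si-AC010789.1. These values overlapped. Its estimate on the log2 scale was 0.03 with a 95% interval from −0.08 to 0.14 (adjusted p = 0.819, edgeR), and the interval of FTH1, from −0.40 to −0.15, lay wholly below it. The heavy to light ratio was 4.98, 4.32 and 4.56 in siRNA-NC against 3.66, 3.87 and 3.50 in si-AC010789.1, in TPM of FTH1 per TPM of FTL. The ratio sums all FTH1 models and uses their lengths, and in TPM FTH1 alone already lay apart while FTL overlapped. Every si-AC010789.1 library had a lower ratio than any control. An exact permutation test, two-sided, gave p = 0.1, the lowest that 3 libraries against 3 can reach, and 0.178 after adjustment over a set of 16 ratios, shares and levels. Other values, such as the shares by transcript type below, were outside that adjustment.

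The FTH1 counts were spread over 12 annotated transcripts, of which 10 hold the hairpin printed above. FTH1-207, the most counted, starts downstream of the hairpin, and it had 8177, 6745 and 7666 counts in siRNA-NC against 5181, 5716 and 5248 in si-AC010789.1. FTH1-201, a protein-coding model with the hairpin, had 2323, 3948 and 4834 against 2715, 3619 and 3586 counts. FTH1-208, a model annotated for nonsense-mediated decay, had 2828, 3391 and 3674 against 2528, 2853 and 2881 counts. After scaling for depth the groups lay apart for FTH1-207 and FTH1-208 and overlapped for FTH1-201, and none of the 3 passed the transcript test (adjusted p from 0.726 to 0.994, edgeR). The share of FTH1 counts in transcripts with the hairpin was 42.6%, 54.4% and 51.9% in siRNA-NC against 50.7%, 52.0% and 53.5% in si-AC010789.1, and the groups overlapped. The share in transcripts annotated as protein-coding was 72.7 ± 1.27% in siRNA-NC against 69.0 ± 0.938% in si-AC010789.1 (SD, n = 3 each), and that in retained-intron models was 7.20 ± 0.514% and 9.35 ± 0.588%. The share in models annotated for nonsense-mediated decay was 20.1 ± 1.55% and 21.7 ± 0.360%. For all 3 shares the groups lay apart (exact permutation p = 0.1 each, the smallest possible, without adjustment). The 3 shares add up to the whole gene, so they are not separate results. How often such shares lie apart over all genes was not tested. Counts from protein-coding models alone gave FTH1 a log2 fold change of −0.35 (adjusted p = 0.0953, edgeR).

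FTH1 has many processed copies in the genome, and 12 of its pseudogenes had rows in the table. FTH1P2 was the most counted, with 666, 651 and 753 CPM in siRNA-NC against 600, 604 and 577 CPM in si-AC010789.1. Over 410 aligned bases it was 97.6% identical to FTH1 mRNA, and 40.8% of its 50-base windows occur unchanged in an FTH1 transcript. A read pair that lies wholly within such shared stretches fits both. The window was a chosen length, and the share of reads for which this holds was not measured. How shared reads were assigned was not given in the sources used here, and the division of counts between FTH1 and its copies is uncertain. The pseudogene rows together had 985 ± 67.7 CPM in siRNA-NC against 841 ± 29.1 CPM in si-AC010789.1, with the groups apart. Per FTH1 count they held 0.728 ± 0.0559 and 0.754 ± 0.0155 pseudogene counts, and here the groups overlapped (exact permutation p = 0.7, 0.747 adjusted). FTH1 and its copies summed to 2339 ± 117 and 1957 ± 45.0 CPM, and adding the copies to the parent gave a log2 fold change of −0.26 (adjusted p = 0.0752, edgeR). All 9 tested pseudogenes of FTH1 had an estimate below 0, where the median over all tested genes was −0.00066, and none passed the test. They share from 14.1% to 40.8% of their 50-base windows with FTH1 transcripts, so these are not 9 separate observations.

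Among them FTH1P8 had 52.1, 54.3 and 53.7 CPM in siRNA-NC against 44.1, 41.6 and 45.0 CPM in si-AC010789.1 (log2 fold change −0.29, adjusted p = 0.10, edgeR). FTH1P10 stood out by 1 library, with 496, 630 and 662 counts in siRNA-NC but 10, 462 and 506 in si-AC010789.1. The low value was that of si-AC010789.1 replicate 1, where neither of the 2 transcript rows of FTH1P10 had more than 5 counts. FTH1P7, FTH1P11 and FTH1P23 overlapped between groups, and their log2 estimates were −0.14, −0.12 and −0.06 (adjusted p from 0.493 to 0.696, edgeR). FTH1P3, FTH1P12 and FTH1P16 had from 71 to 130 counts over all libraries, and FTH1P4 and FTH1P19 were too low to test. FTLP3, the processed copy of FTL, had 9.39, 12.4 and 11.5 CPM in siRNA-NC and between 12.9 and 13.2 CPM in si-AC010789.1 (log2 fold change 0.23, adjusted p = 0.414, edgeR).

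**Figure D2:**
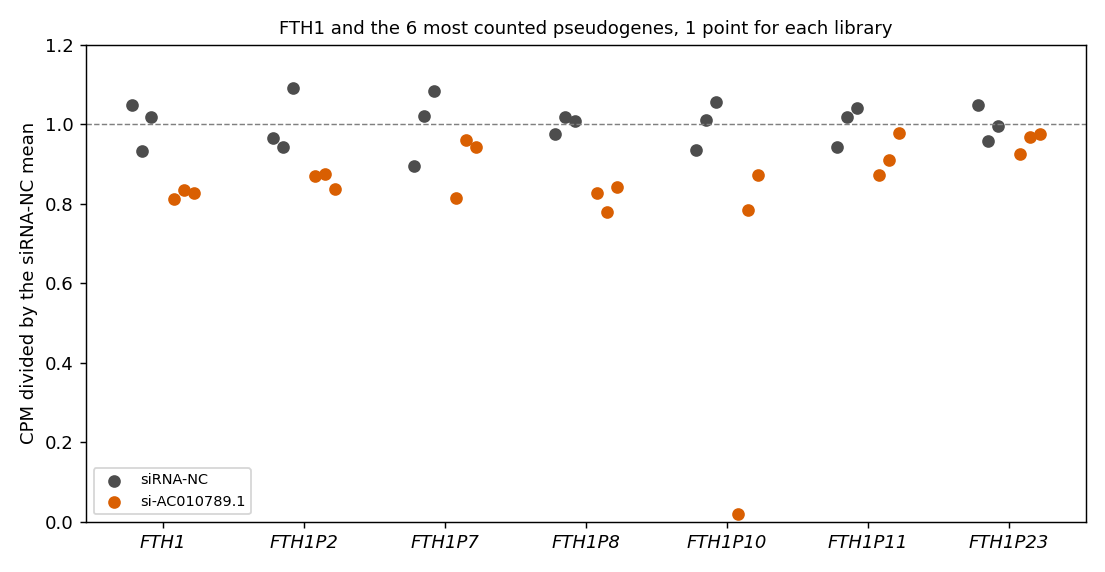
CPM of FTH1 and of its 6 most counted pseudogenes in each library, divided by the siRNA-NC mean of the same gene (dashed line at 1). siRNA-NC libraries are grey and si-AC010789.1 libraries orange, and for FTH1, FTH1P2, FTH1P8 and FTH1P10 all orange points lie below all grey ones, with 1 FTH1P10 library near 0.

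TFRC encodes the transferrin receptor, which brings iron-loaded transferrin into the cell (ENSG00000072274.12, chromosome 3, from 196027183 to 196082189 on the minus strand). It had 941, 972 and 960 CPM in siRNA-NC against 1049, 967 and 1043 CPM in si-AC010789.1. Replicates 1 and 3 of si-AC010789.1 lay above the controls, and replicate 2 lay among them. Between groups the log2 fold change was 0.09 with a 95% interval from −0.02 to 0.20 (adjusted p = 0.374, edgeR). Nearly all counts fell in TFRC-202, with 10121, 12220 and 12149 against 11370, 11478 and 12201 counts. TFRC-201 had from 327 to 514 counts and TFRC-211, a retained intron model, from 27 to 64. Transcripts that hold the 4 hairpins found by the search took 98.5 ± 0.136% of the gene's counts in siRNA-NC against 98.7 ± 0.212% in si-AC010789.1 (SD, n = 3 each). These shares overlapped.

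HMOX1 encodes haem oxygenase 1, which opens the haem ring and frees its iron (ENSG00000100292.16, chromosome 22, from 35380361 to 35394214 on the plus strand). It had 25.4, 23.5 and 24.3 CPM in siRNA-NC against 26.3, 27.1 and 24.2 CPM in si-AC010789.1, which overlapped. Its log2 fold change was 0.08 with a 95% interval from −0.11 to 0.28 (adjusted p = 0.657, edgeR). HMOX1-201 held between 92.6% and 99.7% of its counts. HMOX1-203 had 19 counts in si-AC010789.1 replicate 3 and 0 elsewhere, and HMOX1-204 had from 1 to 5. On the TPM scale, which also uses the lengths of the models, the groups lay apart, at 26.2 ± 1.29 in siRNA-NC against 29.3 ± 0.422 in si-AC010789.1 (SD, n = 3 each). In si-AC010789.1 replicate 3 the value of 29.8 TPM included the 19 counts of HMOX1-203, a model of 582 bases beside 1822 for HMOX1-201. In CPM the same library, at 24.2, lay among the controls. Whether the groups lie apart in TPM without HMOX1-203 was not tested. HMOX1 had 287 to 339 counts per library.

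**Figure D3:**
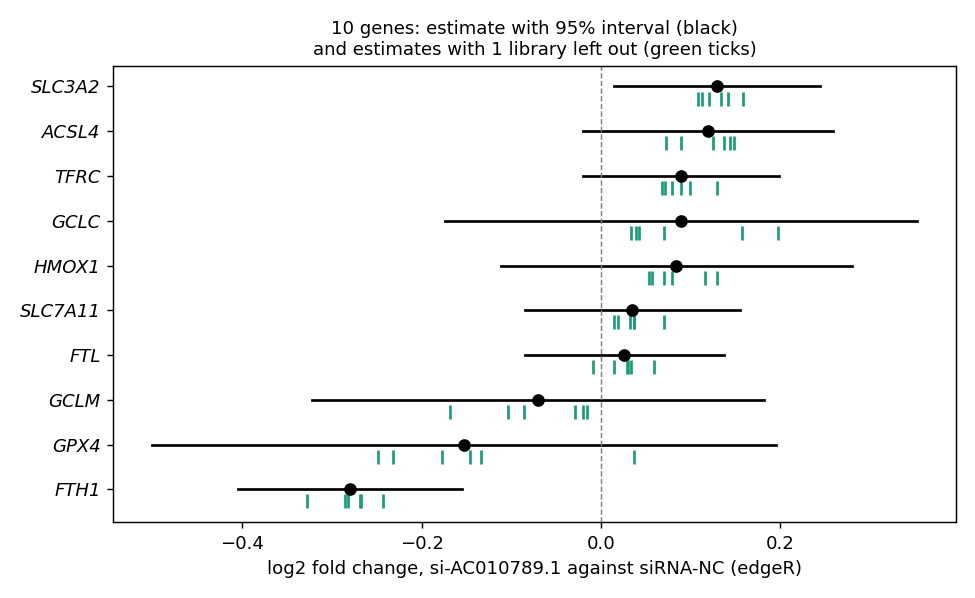
Log2 fold change of each of the 10 genes, si-AC010789.1 against siRNA-NC, from edgeR (black points) with 95% intervals (black lines), and the 6 estimates made with 1 library left out (green ticks). The intervals of FTH1, from −0.40 to −0.15, and of SLC3A2, from 0.01 to 0.24, do not cross 0, and 1 green tick of GPX4 lies on the other side of 0 from its point.

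SLC7A11 is the subunit that exchanges cystine for glutamate (ENSG00000151012.13, chromosome 4, from 138164097 to 138242349 on the minus strand). It had 115, 124 and 116 CPM in siRNA-NC against 121, 122 and 121 CPM in si-AC010789.1. The groups overlapped. The coefficient of variation over all 6 libraries was 3.04%, the lowest of the 10 genes, beside a median of 12.2% over all tested genes. The fitted log2 fold change was 0.04 with a 95% interval from −0.08 to 0.15 (adjusted p = 0.773, edgeR). SLC7A11-201 took at least 99.4% of the counts, and SLC7A11-202, the other model listed, had at most 9 in a library.

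SLC3A2 is the heavy chain that carries SLC7A11 and other amino acid transporters to the cell surface (ENSG00000168003.16, chromosome 11, from 62856102 to 62888875 on the plus strand). It had 147, 155 and 145 CPM in siRNA-NC against 162, 168 and 160 CPM in si-AC010789.1. All 3 si-AC010789.1 libraries lay above all 3 controls, and the gap between the nearest libraries, 155 and 160 CPM, was smaller than the range within either group. The means were 149 ± 5.51 and 163 ± 3.91 CPM (SD, n = 3 each), with a log2 fold change of 0.13 (standard error of 0.048 and adjusted p = 0.245, edgeR). Per CPM of SLC7A11 there were 1.28, 1.25 and 1.25 CPM of SLC3A2 in siRNA-NC against 1.34, 1.37 and 1.32 in si-AC010789.1, again apart (exact permutation p = 0.1, the smallest possible, and 0.178 adjusted). Its transcripts were unsteady beneath the sum. SLC3A2-203, the most counted of 23, had 1044, 1141 and 846 counts in siRNA-NC against 987, 952 and 1196 in si-AC010789.1. SLC3A2-209, a non-coding model, had 0, 165 and 131 against 85, 447 and 0 counts, and SLC3A2-211 had 92, 134 and 168 against 127, 130 and 116.

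GCLC is the catalytic subunit of glutamate-cysteine ligase, the rate-limiting enzyme of glutathione synthesis (ENSG00000001084.12, chromosome 6, from 53497341 to 53616970 on the minus strand). It had 62.2, 61.5 and 76.4 CPM in siRNA-NC against 75.8, 64.5 and 72.7 CPM in si-AC010789.1, and the highest control exceeded every si-AC010789.1 library. The log2 fold change was 0.09 with a 95% interval from −0.17 to 0.35 (adjusted p = 0.730, edgeR). Most counts were shared by 3 of its models, and none of the 3 led in every library. GCLC-201 had 247, 471 and 542 counts in siRNA-NC against 305, 237 and 273 in si-AC010789.1. GCLC-206 had 176, 236 and 11 against 314, 283 and 244 counts, so the groups lay apart, yet the fitted difference had a standard error of 0.98 on the log2 scale (adjusted p = 0.986, edgeR). GCLC-213 was at 0 in siRNA-NC replicates 1 and 2 and at 303 in replicate 3, beside 76, 94 and 203 in si-AC010789.1, so within siRNA-NC the counts of the gene fell to different models in different libraries.

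GCLM, the modifier subunit that lowers the ligase's need for glutamate, had 39.4, 38.6 and 43.2 CPM in siRNA-NC against 35.5, 43.7 and 36.2 CPM in si-AC010789.1 (ENSG00000023909.9, chromosome 1, from 93885205 to 93909456 on the minus strand). The values overlapped, and the log2 fold change was −0.07 with a 95% interval from −0.32 to 0.18 (adjusted p = 0.786, edgeR). GCLM-201 had 300, 360 and 516 against 235, 519 and 307 counts, and the shorter GCLM-204 had 124, 141 and 39 against 159, 29 and 126. In 4 of the 6 libraries GCLM-204 had over 100 counts, and in the other 2, 1 of each group, it was under 40. GCLM-203 had at most 21. Per TPM of GCLM there were 1.99, 2.03 and 2.16 TPM of GCLC in siRNA-NC against 2.37, 2.56 and 2.31 in si-AC010789.1, without overlap (exact permutation p = 0.1, the smallest possible, and 0.178 adjusted). That ratio uses the lengths of the models to which reads were assigned, and neither gene alone lay apart in TPM.

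GPX4, the peroxidase that reduces lipid peroxides inside membranes, had 91.9, 65.5 and 63.9 CPM in siRNA-NC against 65.7, 64.8 and 68.4 CPM in si-AC010789.1 (ENSG00000167468.16, chromosome 19, from 1103926 to 1106791 on the plus strand). The values of 5 libraries lay close together, and that of siRNA-NC replicate 1 alone was high. Its estimate on the log2 scale was −0.15 with a 95% interval from −0.50 to 0.20 (adjusted p = 0.649, edgeR), and without siRNA-NC replicate 1 it was 0.04. Which group was higher in the mean was thus decided by that library.

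The transcripts of GPX4 varied far more than its sum. GPX4-210, which holds the selenocysteine codon, had 873, 527 and 413 counts in siRNA-NC against 180, 470 and 15 in si-AC010789.1. GPX4-212, whose model lacks the codon, had 3, 1 and 19 counts in siRNA-NC against 343, 4 and 435 in si-AC010789.1. Where one was high the other was low: si-AC010789.1 replicate 2 resembled the controls, and replicates 1 and 3 held more GPX4-212 than GPX4-210. The log2 fold change of GPX4-212 was 5.17 (standard error of 1.87 and adjusted p = 0.833, edgeR), and that of GPX4-210 was −1.45 (adjusted p = 0.966). The share of GPX4 counts in the 8 of 13 transcripts annotated with the codon was 99.0%, 94.9% and 80.3% in siRNA-NC against 45.9%, 94.8% and 43.6% in si-AC010789.1, which overlapped (exact permutation p = 0.2, 0.291 adjusted). The retained-intron models of GPX4 hold the 3 bases in their exons but are not annotated with the codon, and they were counted with the other transcripts. GPX4-210 and GPX4-212 differ at the codon by the 3 bases shown above. How reads that both could hold were divided was not given in the sources used here. The shares by codon describe annotated models, and whether any GPX4 RNA lacked the codon was not tested. GPX4-207, also with the codon, had 17, 135 and 65 against 34, 173 and 59 counts.

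**Figure D4:**
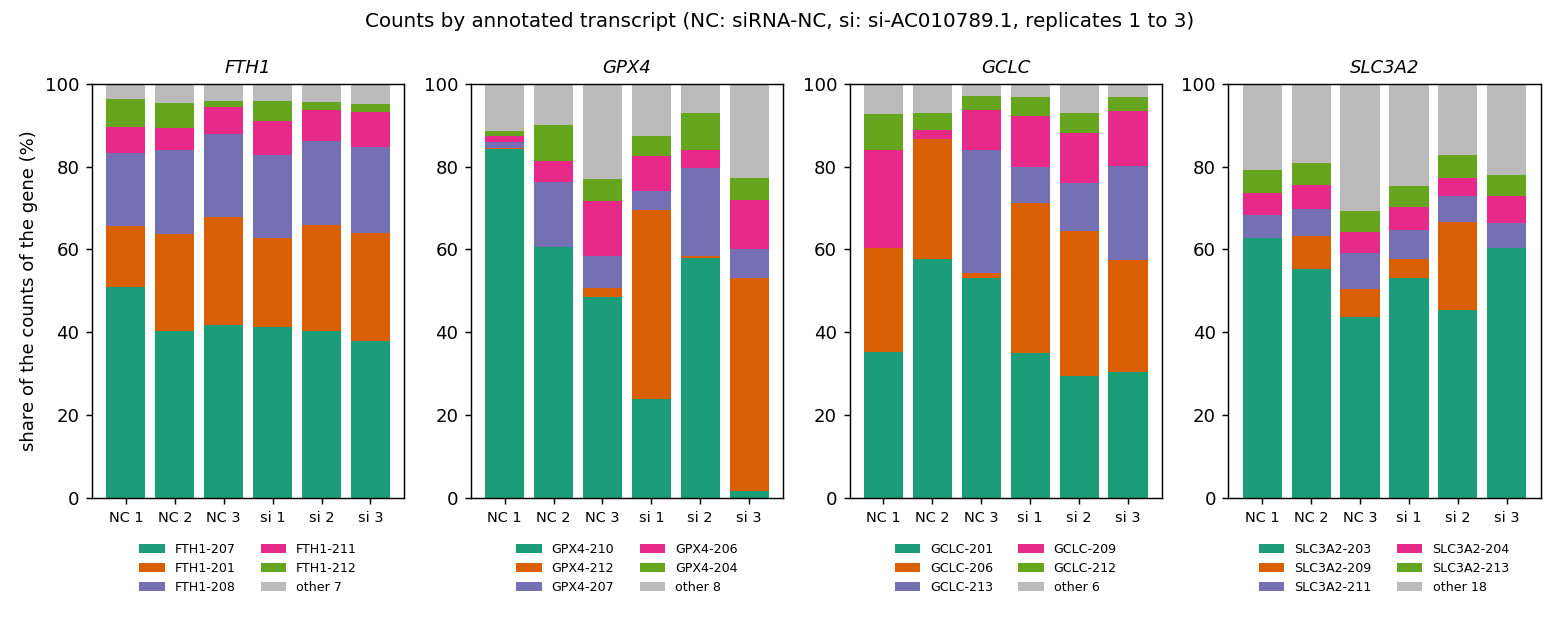
Share of each gene's counts (vertical axis, percent) in its 5 most counted annotated transcripts and in the rest (grey), for FTH1, GPX4, GCLC and SLC3A2, with 1 bar for each of the 3 siRNA-NC (NC) and 3 si-AC010789.1 (si) libraries. FTH1-207 is the largest share of FTH1 in all 6 libraries, from 37.9% to 51.0%, while GPX4-210 leads in 4 libraries of GPX4 and GPX4-212 in si-AC010789.1 replicates 1 and 3.

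ACSL4 feeds ferroptosis, since it loads polyunsaturated fatty acids that enter membrane phospholipids (ENSG00000068366.19, chromosome X, from 109624244 to 109733403 on the minus strand). It had 191, 196 and 182 CPM in siRNA-NC against 201, 220 and 198 CPM in si-AC010789.1. The lowest si-AC010789.1 library, at 198 CPM, lay just above the highest control, at 196 CPM. Between groups the log2 fold change was 0.12 with a 95% interval from −0.02 to 0.26 (adjusted p = 0.354, edgeR). On the TPM scale the groups overlapped for ACSL4, and so they did for SLC3A2. ACSL4-202 held between 95.6% and 99.3% of the counts, while ACSL4-201 had from 6 to 35 counts and ACSL4-212 from 0 to 58. KCNE5 shares 78 exon bases with ACSL4 on the same strand and had from 3 to 20 counts per library.

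Over the whole set, 56 of the 91 transcripts passed the filter for the transcript test, and 0 had an adjusted p-value under 0.05 (edgeR), where 0.0135% of 44319 transcripts did. At an unadjusted p under 0.05 there were 5, where 5.73% of all transcripts fell under it, and DESeq2 also called 0. The groups lay apart for 8 of the 56, 2 with si-AC010789.1 above and 6 below, where 14.0% of all tested transcripts lay apart (6.87% above and 7.10% below).

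The wider pathways around the 10 genes were read from 7 hand-written lists with 154 further genes, of which 140 were in the table and 137 were tested. Of these 137, 2 changed at an adjusted p under 0.05 (edgeR), where 0.982% of all genes did, and both fell. For 31 (22.6%) the groups lay apart, where 25.1% of all genes did. The 2 genes were STEAP3, the ferrireductase that turns transferrin-delivered iron into the form that can leave the endosome, and SELENON, a selenoprotein of the endoplasmic reticulum.

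STEAP3 had 73.0, 78.9 and 77.1 CPM in siRNA-NC against 58.6, 52.2 and 52.8 CPM in si-AC010789.1. The fitted log2 fold change was −0.49 (standard error of 0.071 and adjusted p = 0.0437, edgeR), and with any 1 library left out the adjusted p rose to between 0.0669 and 0.151. It was the only one of 15 tested iron handling genes to pass, in edgeR and in DESeq2, and the median of that list was 0.04 on the log2 scale. NCOA4, the receptor that sends ferritin to the lysosome, had 177, 181 and 179 CPM in siRNA-NC against 256, 217 and 182 CPM in si-AC010789.1 (adjusted p = 0.286, edgeR). FBXL5, which marks an iron regulatory protein for degradation, had 30.3 ± 0.445 and 26.9 ± 1.99 CPM (SD, n = 3 each; adjusted p = 0.352, edgeR), and it shares 18 exon bases with FAM200B on the opposite strand.

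Haem synthesis and breakdown held 15 tested genes, with a median of −0.03 on the log2 scale. Of these, 3 had an unadjusted p under 0.05 (edgeR), where 17.2% of all genes did, and neither edgeR nor DESeq2 called any. ALAS1, which starts haem synthesis, had 130 ± 4.49 CPM in siRNA-NC against 117 ± 2.62 CPM in si-AC010789.1 (adjusted p = 0.217, edgeR), UROS had 34.3 ± 1.65 and 29.6 ± 1.67 CPM (adjusted p = 0.255), and FECH, which inserts iron into the ring, had 20.7 ± 1.30 and 24.4 ± 1.30 CPM (adjusted p = 0.242). Among 25 tested genes of glutathione synthesis and use 2 had an unadjusted p under 0.05, beside the same 17.2% of all genes, and neither tool made a call, with a median of −0.04. Its 3 genes of smallest p were the glutathione transferases GSTO1, with a log2 fold change of 0.33, and GSTM3, with 0.12, and the glutathione conjugate exporter ABCC1, with −0.28 (adjusted p from 0.168 to 0.311, edgeR).

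NRF2 is the transcription factor that drives many antioxidant genes, GCLC, GCLM, SLC7A11, HMOX1, FTH1 and FTL among them. Of 27 further regulators and targets tested, 20 estimates lay below 0 and 7 above, with a median of −0.08. None passed in edgeR, and 5 had an unadjusted p under 0.05, where 17.2% of all genes did. TXNRD1, a selenoprotein that recycles thioredoxin, had 382, 545 and 353 CPM in siRNA-NC against 219, 216 and 227 CPM in si-AC010789.1. Its log2 fold change of −0.95 (standard error of 0.16 and adjusted p = 0.0603, edgeR) missed the threshold, and without siRNA-NC replicate 2 it was −0.74 with an adjusted p of 0.0414. PRDX1, a thioredoxin-fed peroxidase, had 648, 554 and 457 against 372, 327 and 346 CPM (log2 fold change −0.67, adjusted p = 0.0756, edgeR), and it shares 379 exon bases with MMACHC on the opposite strand. ME1, which makes NADPH, had 39.7, 41.4 and 36.3 against 52.0, 49.4 and 54.5 CPM (log2 fold change 0.41, adjusted p = 0.0799, edgeR). DESeq2 called all 3 of these genes and ABCC3, an exporter of conjugates (log2 fold change −0.36, adjusted p = 0.0220, DESeq2). Over all genes it called 5.16% of those to which it gave an adjusted p.

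The selenoprotein list held 22 tested genes with a median of 0.06, and edgeR called SELENON alone, while DESeq2 also called LRP8. Over all genes edgeR called 0.982% of those tested, and DESeq2 called 5.16% of those to which it gave an adjusted p. SELENON had 76.1, 83.5 and 74.5 CPM in siRNA-NC against 50.4, 51.6 and 57.7 CPM in si-AC010789.1 (log2 fold change −0.55, standard error of 0.08 and adjusted p = 0.0434, edgeR), and the adjusted p rose to between 0.0881 and 0.151 with any 1 library left out. LRP8, a receptor for the selenium carrier SELENOP, had 186, 183 and 187 CPM in siRNA-NC against 214, 224 and 215 CPM in si-AC010789.1 (log2 fold change 0.23, adjusted p = 0.0648 in edgeR and 0.00517 in DESeq2). SELENOH had 17.1, 19.2 and 16.6 against 22.1, 23.2 and 20.7 CPM (adjusted p = 0.173, edgeR). Of the 22 estimates, 14 lay above 0 and 8 below.

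Among 30 tested genes of lipid peroxidation and its other brakes, 21 estimates lay above 0 and 9 below, with a median of 0.07. With edgeR none passed and 6 had an unadjusted p under 0.05, where 17.2% of all genes did. DESeq2, which called 5.16% of all genes to which it gave an adjusted p, called FADS1, PEBP1 and SCD (adjusted p = 0.00185, 0.0258 and 0.0407). SCD is a desaturase that makes monounsaturated chains. FADS1, a desaturase that makes the polyunsaturated chains on which ACSL4 acts, had 627, 613 and 635 CPM in siRNA-NC against 543, 538 and 546 CPM in si-AC010789.1 (log2 fold change −0.20, adjusted p = 0.0658, edgeR), and it shares 490 exon bases with FADS2 on the opposite strand. PDSS2, of coenzyme Q synthesis, had 13.1, 16.6 and 14.3 against 20.9, 19.7 and 21.0 CPM (adjusted p = 0.108, edgeR). PEBP1, which can direct lipoxygenases to membrane lipids, had 293 ± 21.0 and 239 ± 14.0 CPM (adjusted p = 0.115, edgeR), and it shares 169 exon bases with VSIG10 on the opposite strand. Of the 5 other partners of SLC3A2, 3 were tested with a median of 0.35, none with an unadjusted p under 0.05 in edgeR and none called by DESeq2, and the estimates were 0.06 for SLC7A5, 0.35 for SLC7A6 and 0.35 for SLC7A8 on the log2 scale (adjusted p from 0.376 to 0.700, edgeR). SLC7A6 shares 3371 exon bases with SLC7A6OS on the opposite strand.

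**Figure D5:**
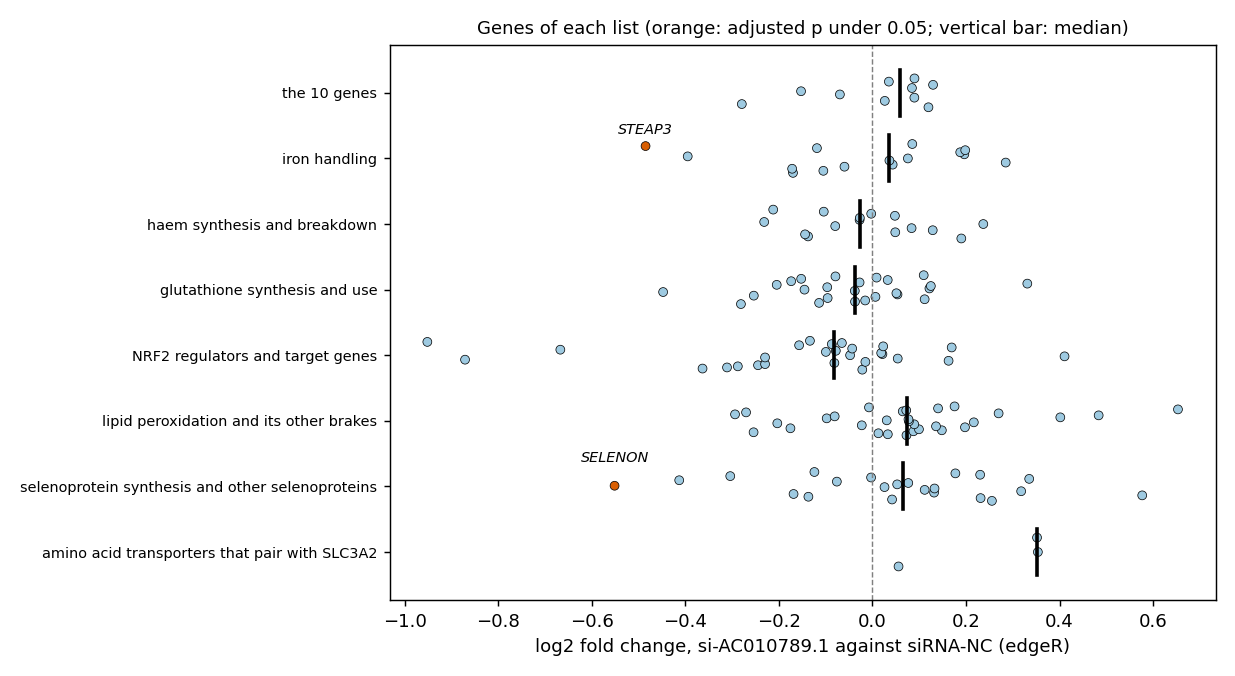
Log2 fold change (edgeR, si-AC010789.1 against siRNA-NC) of each tested gene in the 10-gene set and in 7 lists around it, 1 point for each gene, with the list median as a vertical bar and genes with an adjusted p under 0.05 in orange. The 2 orange points are STEAP3 at −0.49 and SELENON at −0.55, and the medians lie between −0.08 and 0.07 in the 6 lists with more than 3 tested genes.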

How the data were processed

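Paired-end TruSeq libraries of RNA labelled as HCT116 (3 siRNA-NC, 3 si-AC010789.1, grouped by their labels) were run on an Illumina NovaSeq. As deposited by the authors, the table holds raw integer counts for each Ensembl transcript in each library. All 98886 listed transcripts have at least 3 counts over the 6 libraries. The submitters' processing notes name CASAVA 1.8 and TopHat2 2.0.6 and the builds mm10 and GRCh38 without their roles. The counting program, its use of strand and its treatment of reads shared by several transcripts are not given in the sources used here, which bears on single transcripts and on FTH1 with its pseudogenes. The study calls its libraries biological repeats and says that the cell generation differed between them.

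Counts were joined to GENCODE v29 (GRCh38, reference chromosomes; 98782 transcripts matched, 104 did not) and summed per gene. Gene sums and transcripts were tested with edgeR 4.0.16 in R 4.3.3 (TMM, filterByExpr at 10 counts and a total of 15, quasi-likelihood test, Benjamini-Hochberg adjustment over all features tested, threshold 0.05). TMM factors of genes ran from 0.994 to 1.01. Levels of 1 gene are in CPM, and levels between genes in TPM from annotated lengths. Shares and ratios were compared with exact two-sided permutation tests over libraries. The alternatives were DESeq2 1.42.0, RLE normalization, no filter, a mean of at least 1 CPM, the replicate block, protein-coding transcripts only and leaving out each library. The iron-responsive element was searched on the transcript strand as a C, 5 bases, CAGTGN and 5 bases, all 5 pairs (G with T allowed) required. The scripts were tested on simulated data. Python 3.11.15 with pandas 2.3.3, numpy 2.4.6, scipy 1.17.1, Biopython 1.88 and matplotlib 3.10.9 was used. No pair of libraries agreed within sampling noise.

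The 10 genes and the lists were chosen with earlier results of these data known. The text names the 10 genes and the 3 most counted transcripts of each. From the lists it names each gene with an adjusted p under 0.05 and the 3 tested genes of smallest unadjusted p. Ferritin pseudogenes with at least 10 counts are named too, and ABCC3 and SCD were added after their values were seen. Other named genes (BEST1, KCNE5, FAM200B, MMACHC, FADS2, VSIG10, SLC7A6OS) share exon bases with a named gene. MMACHC had 128 to 359 counts per library, FADS2 425 to 582, VSIG10 799 to 974 and SLC7A6OS 503 to 575. On the same strand, AL020996.2 shares 378 exon bases with SELENON, AP001931.1 207 with SELENOH and MIR1908 80 with FADS1. They had 0 to 3, 1 to 2 and 1 to 4 counts per library.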

Additional observations from a re-analysis of the deposited data

How the results depend on the processing

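Over all genes 135 passed, beside 554 with DESeq2, 69 without the filter on low counts and 56 from protein-coding transcripts only, and between 12 and 37 with 1 library left out. With the replicate number as a block 0 passed in edgeR, where 2163 had an unadjusted p under 0.05, beside 2360 without the block. The correlations of same-numbered libraries were 0.0896, 0.0028 and 0.00032 for replicates 1, 2 and 3. Those of differently numbered libraries ran from −0.0771 to 0.0789, so replicate 1 gave the highest of all. These values do not settle whether the numbers pair the libraries, and no source says that a number marks a shared cell generation. Of the 10 genes, 1 (FTH1) passed with DESeq2 and 0 under every other alternative, among them the replicate block, where FTH1 had an adjusted p of 0.204 (edgeR), and an alternative added after the data were seen, in which ferritin pseudogenes were added to their parent gene. Of the 137 listed genes 2 passed, beside 10 with DESeq2, 0 without the filter, 0 with the replicate block, 0 from protein-coding transcripts and 0 or 1 (TXNRD1) with a library left out. Over 130 alternative estimates for the 10 genes, 127 kept their sign and their side of the threshold. The 2 that changed sign were GPX4, from −0.248 to 0.0373 over the fits with 1 library left out and positive without siRNA-NC replicate 1, and FTL, from −0.0089 to 0.0598 and negative without si-AC010789.1 replicate 3; the remaining 1 was FTH1 with DESeq2. Member transcripts called (0) and the order of levels were the same in every alternative run. Single transcripts, with a fitted spread of 0.698 against 0.170 for gene sums, are the least certain values here.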
